A study of Mus musculus with 2 samples.

Results

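Of 5678 annotated cells of mouse embryos at E11.5, 60 (1.06%) carried the label Erythrocyte, and the transcripts of those 60 cells are described here. They were taken as all cells to which the authors' cell table gives that cell type name, joined by barcode to the deposited matrix of each suspension, and none of the 60 barcodes was lost in the join. The embryos carried a CAG-driven EGFP transgene, linked to a DNA barcode and inserted with the piggyBac transposon. CAG is a promoter active in most tissues, every suspension carried the transgene, and no embryo without it was included. Suspensions F0_8 and F0_9 were each made from 1 founder embryo, in which the transgene can be mosaic. The F1 generation gave suspension F1_1, made from 1 embryo, and suspension F1_mix, in which cells of F1 embryos were mixed to imitate a mosaic and which counts as 1 sample. By the methods of the study, the founders came from C57BL/6J oocytes fertilized with C57BL/6J sperm. The 4 suspensions were tagged with multiplexing oligos, pooled and captured in the same droplets, and 0 barcodes were shared between them. F0_8 held 12 Erythrocyte cells (0.750% of its cells, exact 95% interval 0.388 to 1.31), F0_9 held 23 (1.75%, 1.11 to 2.61), F1_1 held 9 (0.687%, 0.315 to 1.30) and F1_mix held 16 (1.10%, 0.632 to 1.78), so the intervals overlap. Where 4 values follow each other below without names, they are those of F0_8, F0_9, F1_1 and F1_mix in this order. Intervals here and below cover counting error only.

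Red cells of the embryo come in successive waves. Primitive erythroid cells arise in the yolk sac, enter the blood as nucleated cells and mature there together, passing from the embryonic beta-like globin Hbb-bh1 to Hbb-y and from the embryonic alpha-like globin Hba-x to the adult alpha globins, while they stop dividing, condense chromatin and lose organelles and ribosomes. Definitive erythroid cells arise in the fetal liver and use the adult beta globins Hbb-bs and Hbb-bt. Each hemoglobin subunit needs a heme group, so maturing red cells also carry the mRNAs of heme synthesis, iron handling and antioxidant defence.

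The label was checked against its markers. Hba-x, Hbb-y and Alas2, the heme synthesis enzyme specific to the erythroid lineage, carried 285123, 519877 and 1205 UMIs over the 60 cells, and Hbb-bh1 carried 52322. Markers of other cell types were near 0. Over all 60 cells the lists of 6 genes each gave 0 UMIs for macrophages, which allows up to 3, then 1 for endothelium, 1 for liver, 3 for epithelium, 3 for muscle and heart, 3 for blood progenitors, 13 for megakaryocytes, 17 for mesenchyme and 44 for neurons. Of the neuron marker UMIs, 19 lay in 1 cell of F0_9, which is described with the globins. The doublet score deposited by the authors had a median of 0.107 in the Erythrocyte cells and 0.262 in the Erythroblast cells.

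To place the genes on the genome, the 250 bases before the start of 5 genes are shown, in the sense of the gene and from RefSeq promoters of build GRCm38.p6. Hba-x (chr11:32276350-32276599, plus strand) and Hbb-y (chr7:103853208-103853457, minus strand) are the most abundant embryonic globins of these cells, Hbb-bs (chr7:103827929-103828178, minus strand) is the adult beta globin that varied most between suspensions, Alas2 (chrX:150547167-150547416, plus strand) is the marker outside the globins, and Hsd3b6 (chr3:98814444-98814693, minus strand) had the smallest p in the founder and F1 comparison. Capitals mark the letters AGATAA or TGATAA, which the GATA factors of red cells can bind, and CACCC, which Klf1 and its relatives can bind, on either strand.
Hba-x: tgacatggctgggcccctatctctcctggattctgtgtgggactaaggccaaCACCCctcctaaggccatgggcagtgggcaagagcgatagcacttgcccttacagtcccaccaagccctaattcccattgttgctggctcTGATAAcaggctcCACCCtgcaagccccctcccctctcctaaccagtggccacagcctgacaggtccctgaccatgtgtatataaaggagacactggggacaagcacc
Hbb-y: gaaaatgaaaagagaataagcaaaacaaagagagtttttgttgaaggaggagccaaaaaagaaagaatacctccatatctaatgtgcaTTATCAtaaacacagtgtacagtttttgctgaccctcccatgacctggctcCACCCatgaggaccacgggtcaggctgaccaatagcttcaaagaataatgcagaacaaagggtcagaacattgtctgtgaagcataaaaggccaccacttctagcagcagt
Hbb-bs: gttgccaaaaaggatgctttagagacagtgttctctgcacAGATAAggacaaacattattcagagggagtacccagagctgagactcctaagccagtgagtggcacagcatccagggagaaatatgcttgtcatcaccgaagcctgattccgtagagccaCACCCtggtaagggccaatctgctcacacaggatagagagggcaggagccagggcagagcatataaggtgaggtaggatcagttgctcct
Alas2: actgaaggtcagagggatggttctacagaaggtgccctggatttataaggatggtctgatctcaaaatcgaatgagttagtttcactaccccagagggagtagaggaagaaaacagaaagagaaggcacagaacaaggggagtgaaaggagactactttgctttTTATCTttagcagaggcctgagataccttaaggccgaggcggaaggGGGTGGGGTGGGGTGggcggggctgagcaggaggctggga
Hsd3b6: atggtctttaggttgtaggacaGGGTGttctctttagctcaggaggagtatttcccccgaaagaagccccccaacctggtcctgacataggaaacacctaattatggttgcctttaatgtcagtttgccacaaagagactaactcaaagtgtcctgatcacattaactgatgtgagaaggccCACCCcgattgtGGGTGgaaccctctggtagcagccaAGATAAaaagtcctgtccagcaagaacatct
Each of the 5 windows held 1 GATA motif and at least 1 CACCC motif, and both kinds occurred together in 7.11% of all 32851 promoter windows of the same length. A GATA motif was present in 16.6% and a CACCC motif in 52.0% of all windows. Of the 10 globin genes of the matrix, 9 had a promoter in the table, and 6 of those 9 held a GATA motif. Among the 257 genes that stood higher in Erythrocyte than in Erythroblast cells, described below, 201 had a promoter, and 10.9% of these held a GATA motif against 8.21% of the 5606 promoters of all genes counted there. Of the 30 most abundant genes outside globins 25 had a promoter, and 1 of these held a GATA motif and 16 (64.0%) a CACCC motif. The 5 genes shown were picked by hand and are no sample of the genes of these cells. A match of letters is a description and does not show binding.

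Globin transcripts made up 1075081 of the 1551731 gene UMIs of the Erythrocyte cells, or 69.3%. The share was 80.9%, 75.2%, 59.2% and 63.8%. Both founder suspensions stood above both F1 suspensions, with means of 78.1% ± 4.03 (SD, n = 2) and 61.5% ± 3.27 (SD, n = 2). The exact permutation test of 2 against 2 suspensions gave p = 0.333, the smallest p that it allows. The single cells showed the same order. The median cell carried 82.4% globin (range 65.8 to 88.8), 77.8% (26.5 to 83.6), 57.2% (55.1 to 65.4) and 65.2% (51.7 to 69.0). Among droplets assigned to no suspension and holding 1 to 100 gene UMIs, which carry free RNA, globins made up 2.11% of gene UMIs, and in CNS Neuron cells 0.0131%.

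The number of globin UMIs per cell differed much less between suspensions than that of all other transcripts. The median Erythrocyte cell held 17178, 17484, 19874 and 20161 globin UMIs. Outside the globin genes it held 3922 and 5103 UMIs in the founders, against 14324 and 11325 in the F1 suspensions. The F1 mean was thus 2.84 times the founder mean. Taken as other cell types of comparable depth were 10 types with medians of 10898.5 to 18842 gene UMIs, against 24289 in Erythrocyte cells. Their ratio lay between 1.01 and 1.25, with a median of 1.12, and in 8 of them the F1 suspensions lay above the founders without overlap. In Hepatocyte cells, left out as shallow, the ratio was 1.39, and in Erythroblast cells it was 1.64. The multiplexing oligo counts of the Erythrocyte cells moved the same way, with medians of 7385 and 9248 in the founders and 22323 and 21417 in the F1 suspensions, and their part in the result was not tested. Single founder cells held 1498 to 5639 and 2979 to 11441 UMIs outside globins. Single F1 cells held 10076 to 16310 and 7542 to 14307. A difference in which cells were caught and a difference within cells of the same kind cannot be told apart.

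**Figure D1:**
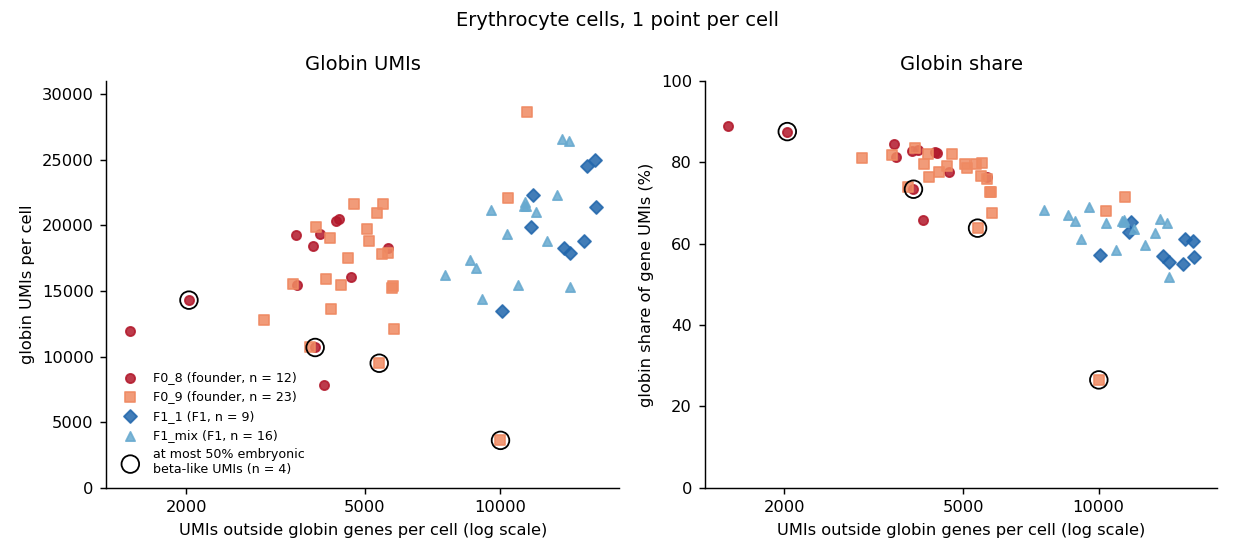
Each point is 1 Erythrocyte cell, with its UMIs outside globin genes on a log axis and its globin UMIs (left) or its globin share of gene UMIs in percent (right), and symbols give the suspension. The founder cells lie mostly to the left of the F1 cells at a similar height in the left panel, and the 4 circled founder cells carried at most 50% embryonic beta-like UMIs.

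The globin transcripts were mainly embryonic. Hbb-y, the later embryonic beta-like globin, made up 45.5%, 49.7%, 48.1% and 48.6% of the globin UMIs. Hba-x, the embryonic alpha-like globin, made up 19.4% and 24.7% in the founders and 31.6% and 30.2% in the F1 suspensions. Both F1 suspensions stood above both founders for Hba-x, and Hbb-y did not separate the generations. Hbb-bh1, the earlier embryonic beta-like globin, made up 2.36% and 3.05% in the founders and 8.14% and 6.74% in the F1 suspensions. The adult alpha globins went the other way. Hba-a1 made up 11.4% and 9.33% of the globin UMIs in the founders against 6.58% and 7.26%, and its near-identical copy Hba-a2 made up 7.27% and 5.52% against 3.62% and 4.16%. The split of reads between such copies is uncertain.

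The adult beta globins showed the widest range. Hbb-bs made up 7.61% and 3.32% of the globin UMIs in the founders but 0.143% and 0.591% in the F1 suspensions. Hbb-bt, its near-identical neighbour, made up 6.50%, 4.35%, 1.75% and 2.47% in the same order. The minor globin genes were rare, with 173 UMIs for Hbq1b, 6 for Hbq1a and 3 for Hbb-bh2 over all 60 cells. Of the beta-like UMIs, 77.2%, 87.3%, 96.8% and 94.8% were embryonic, with 89.1% over all cells. The founder mean was 82.3% ± 7.13 (SD, n = 2) and the F1 mean 95.8% ± 1.42 (SD, n = 2), with an exact permutation p = 0.333. Hbb-bh1 took 4.93% and 5.77% of the embryonic beta-like UMIs in the founders and 14.5% and 12.2% in the F1 suspensions. Hba-x took 50.9%, 62.5%, 75.6% and 72.5% of the alpha-like UMIs. In each of these 3 ratios both F1 suspensions lay on the same side of both founders. The alpha-like share of all alpha-like and beta-like UMIs varied little, at 38.1%, 39.6%, 41.8% and 41.6%.

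**Figure D2:**
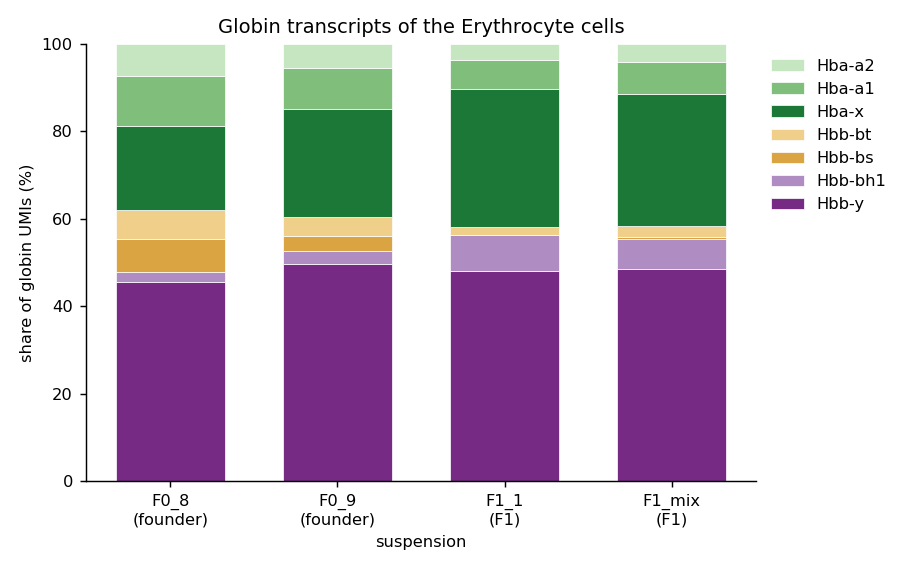
Stacked bars give the share of globin UMIs in percent that each of 7 globin genes took in the Erythrocyte cells of each suspension. Hbb-y took 45.5% to 49.7% in every suspension, while Hbb-bs and Hbb-bt were widest in F0_8 and Hba-x and Hbb-bh1 were wider in F1_1 and F1_mix.

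Embryonic beta-like globin prevailed in 56 of the 60 cells. The other 4 were founder cells, 2 of F0_8 and 2 of F0_9, whose beta-like UMIs were mostly adult. In the 2 cells of F0_8, no embryonic beta-like and no Hba-x UMI was counted among 10692 and 14301 globin UMIs. In a cell of F0_9, 10.9% of the beta-like UMIs were embryonic, and all of these were Hbb-bh1, with 734 UMIs and 0 of Hbb-y. The remaining cell of F0_9 had the lowest globin share of all 60 cells (26.5%), 0.329% embryonic beta-like UMIs, the highest doublet score (0.197) and 19 UMIs of neuron markers. Without these 4 cells the globin shares were 80.9%, 77.0%, 59.2% and 63.8%, and the embryonic share of beta-like UMIs was 90.3%, 90.8%, 96.8% and 94.8%. The 2 founders then differed by less than either did from the F1 suspensions, and neither ratio overlapped between generations. For comparison, 2.51% of the beta-like UMIs of all Erythroblast cells were embryonic, and 87.2% of those were Hbb-bh1. In F1_1 the pooled value was 76.0%, but only 2 of its 7 Erythroblast cells held 100 or more beta-like UMIs, with 0.382% and 96.7% embryonic, so that 1 cell carries it.

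The direction of several globins between generations depended on the scale. As a share of all gene UMIs, Hbb-bs took 6.16%, 2.50%, 0.0847% and 0.377% and Hbb-bt 5.26%, 3.28%, 1.03% and 1.58%. Hba-a1 took 9.23%, 7.02%, 3.90% and 4.63% and Hba-a2 5.89%, 4.15%, 2.15% and 2.65%. These 4 adult globins were higher in both founders by this share and also in UMIs per cell. Hbb-y took 36.8%, 37.4%, 28.5% and 31.003% of all gene UMIs, higher in both founders, but had 7286, 8328, 9714 and 9592 UMIs per cell, lower in both. Hba-x took 15.7%, 18.6%, 18.7% and 19.2% and Hbb-bh1 1.91%, 2.29%, 4.82% and 4.297%, both lower in the founders by either measure.

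The edgeR fit with the globins kept scales the suspensions to each other by TMM, which sets the bulk of genes level and so places every globin higher in the founders than its share of gene UMIs does. On that scale Hbb-bs was higher in the founders by 5.16 ± 0.642 (log2, SE; edgeR adjusted p = 0.000183) and Hbb-bt by 2.64 ± 0.380 (log2, SE; edgeR adjusted p = 0.000671). Hba-a2 and Hba-a1 were higher by 1.99 and 1.85 on the log2 scale, with edgeR adjusted p-values of 0.00221 and 0.00272. Hbb-y was higher by 1.21 with an edgeR adjusted p of 0.0287 on this scale, against its lower UMIs per cell. Hba-x (log2 0.73, edgeR adjusted p = 0.137), Hbb-bh1 (log2 -0.23, edgeR adjusted p = 0.602) and Hbq1b (log2 1.02, edgeR adjusted p = 0.109) did not pass. Without the 4 founder cells with mostly adult beta-like globin, an alternative chosen after seeing the data, Hbb-bs took 1.62%, 1.45%, 0.0847% and 0.377% and Hbb-bt 3.17%, 2.79%, 1.03% and 1.58% of all gene UMIs. The fitted difference was then 3.65 for Hbb-bs (log2, edgeR adjusted p = 6.71e-05) and 2.13 for Hbb-bt (log2, edgeR adjusted p = 9.38e-05), and Hba-x passed (log2 0.92, edgeR adjusted p = 0.0228). That goes against the lower UMIs per cell of Hba-x, which over all 60 cells were 3104, 4141, 6376 and 5954.

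Levels outside the globins are given as UMIs per 10000 UMIs outside globin genes. The chemistry counts the 3′ end of each transcript, so levels compare between genes without scaling by length. The Erythrocyte cells held 476650 such UMIs. They were concentrated in few genes: 133 genes made up 50% of them, against 256 in Erythroblast cells, and the 10 most abundant took 13.7% against 7.04%. When every cell was thinned to 2000 UMIs outside globins, a median of 892 genes was detected per Erythrocyte cell (59 cells, 1 left out) and 1032.5 per Erythroblast cell (142 cells, 2 left out). Unthinned, the medians were 1825 and 4809.5 genes. The thinned medians were 863, 879, 855 and 940.5 genes in F0_8, F0_9, F1_1 and F1_mix, so the generations overlapped.

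The most abundant transcripts outside globin, mitochondrial and ribosomal protein genes encode iron storage, antioxidant and translation proteins. Fth1, the heavy chain of ferritin, stood at 642, 582, 297 and 344, with a mean of 466 ± 171 (SD, n = 4). Ftl1, the light chain, stood at 281, 248, 112 and 132 in the same order. The next ranks were Gpx1, a glutathione peroxidase, with a mean of 147, the peroxiredoxin Prdx2 with 112, Tpt1 with 92.4 and the elongation factor Eef1a1 with 60.4. Car2, the carbonic anhydrase of red cells, had a mean of 57.4. Founder suspensions stood above F1 suspensions for all of these except Eef1a1, which went from 43.5 and 55.5 in the founders to 81.7 and 61.1 in the F1 suspensions. In 29 of the 30 most abundant genes the founders and F1 suspensions did not overlap, beside 1121 (62.9%) of the 1783 genes abundant enough to be tested between generations.

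Nudt4, a diphosphoinositol polyphosphate phosphatase, stood at 62.0, 54.6, 24.0 and 33.1 and was 30.7 times its Erythroblast mean. Alas2 stood at 45.0, 32.8, 17.2 and 20.6, or 14.5 times its Erythroblast mean. Bpgm, the enzyme that makes the phosphoglycerate regulating oxygen release from hemoglobin, stood at 44.1, 35.4, 9.26 and 8.09. Its mean of 24.2 was 66.1 times that of the Erythroblast cells, and 17.8 times with levels taken over all gene UMIs. The other genes of the 30 included Oaz1 (44.2), which restrains polyamine synthesis, the histone gene H3f3a (43.7), the biliverdin reductase Blvrb (38.8), Mgst3 (36.5), Eif1 (32.9), Atpif1 (32.0), the poly(A)-binding protein gene Pabpc1 (29.0), Selenow (25.9), Actb (24.9), Mt1 (24.9), Glrx5 (23.2), Ptma (23.1), Rack1 (22.2), the mitochondrial iron importer Slc25a37 (21.9), the ubiquitin gene Ubb (21.4), H2az1 (18.5), Gclm (18.5), Anp32b (18.2) and Sec61g (18.2), all as means of 4 suspensions. Mt1, a metallothionein, stood at 11.7, 23.9, 20.8 and 43.2, where the generations overlap.

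**Figure D3:**
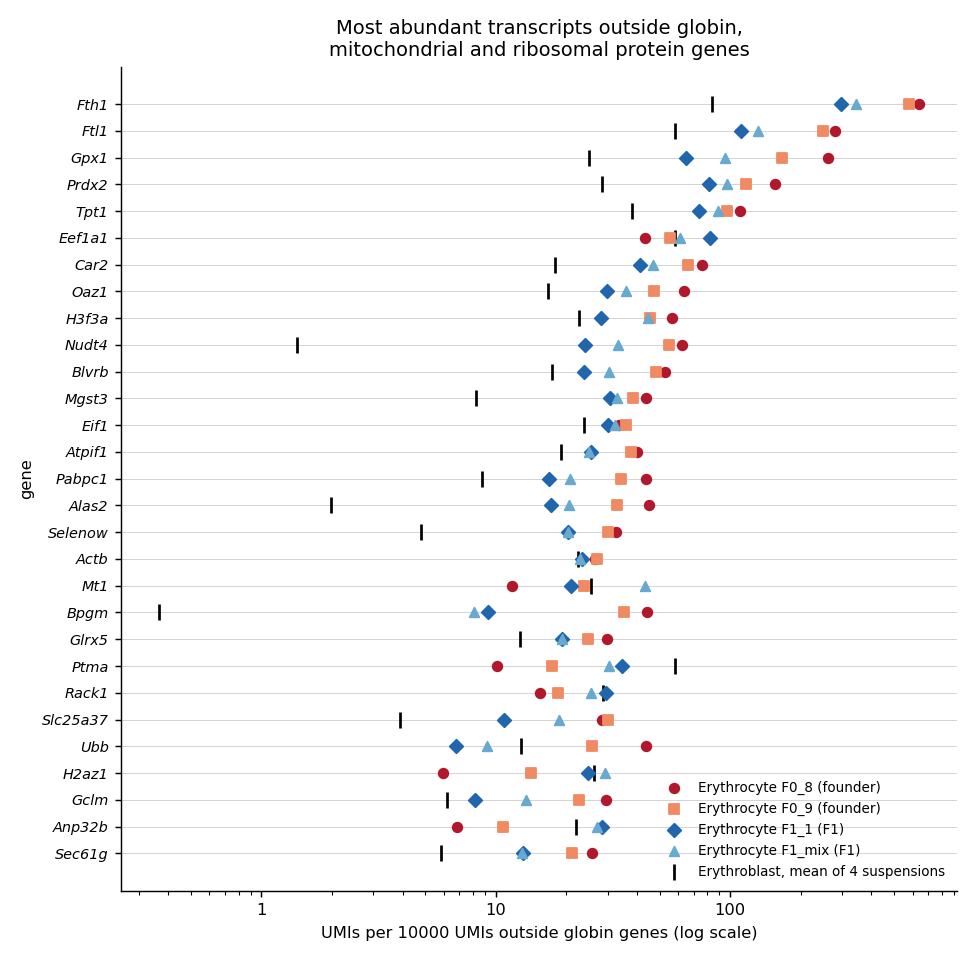
Coloured symbols give the level of the most abundant genes in the Erythrocyte cells of each suspension, as UMIs per 10000 UMIs outside globin genes on a log axis, and black bars give the Erythroblast mean of 4 suspensions. Fth1 leads with 297 to 642, and Bpgm, Nudt4 and Alas2 lie farthest from their Erythroblast bars.

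The Erythrocyte cells were set beside the 144 Erythroblast cells to describe how the levels of genes outside globins differed. The cells had been clustered on these genes, so the differences are a description with no test. Of the beta-like globin UMIs, 89.1% were embryonic in Erythrocyte cells and 2.51% in Erythroblast cells. Primitive or definitive origin and stage of maturation cannot be told apart in these differences. A gene counted as higher or lower when its mean level differed by at least 2-fold and the 4 suspensions of both types did not overlap, among the 6871 genes with at least 50 UMIs over both types. By that rule 257 genes were higher (3.74%) and 1610 lower (23.4%), and the median ratio over all genes was 0.648. When levels were taken over all gene UMIs with globins included, 32 genes were higher and 5461 lower. Without F1_1 the main rule gave 423 higher genes, 241 of them among the 257. The Erythroblast cells themselves differed between generations. Their globin share was 12.3% and 15.6% in the founders (64 and 52 cells) but 0.830% in F1_1 (7 cells) and 2.08% in F1_mix (21 cells). The median Erythroblast cell held 9.37% and 12.0% globin in the founders, but 0.0524% in F1_1 and 0.463% in F1_mix. The part of this in the ratios was not tested.

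Among the genes farthest above Erythroblast was Hsd3b6, a member of the steroid dehydrogenase family with close paralogues. It stood at 38.2, 22.5, 1.996 and 4.63, at a mean 348 times that of the Erythroblast cells, and was detected in 51 of the 60 cells. The ratio was 180 without F0_8, 537 without F1_1 and 87.9 with levels taken over all gene UMIs. Its level in the other cell types of comparable depth was 0.00254. Pdzk1ip1, a small membrane protein gene, stood at 11.9, 10.2, 4.71 and 7.20 (89.8 times Erythroblast), and Ncf4, an NADPH oxidase subunit gene, at 11.3, 8.67, 2.87 and 4.74 (68.1 times). With levels taken over all gene UMIs, the folds of Pdzk1ip1 and Ncf4 were 27.5 and 20.1. Cfap57 stood 112 times, Fam174b 59.5 times and Ccdc141 42.4 times above Erythroblast, at means of 2.95, 1.34 and 1.26. Cfap57, Fam174b and Ccdc141 had 14, 5 and 7 UMIs in the Erythroblast cells, and their folds moved when 1 suspension was left out, between 89.4 (without F1_mix) and 265 (without F0_9) for Cfap57, between 37.7 (without F0_9) and 283 (without F1_1) for Fam174b and between 28.7 (without F0_8) and 91.8 (without F1_1) for Ccdc141. Over all gene UMIs they were 35.4, 14.5 and 11.6. For 3 genes the Erythroblast sums rest on 2 or 3 UMIs. The ratio of the pooled levels was 575 (95% interval 156 to 4796) for the chemokine receptor gene Ackr3, 238 (78.7 to 1175) for the homeobox gene Lmx1a and 135 (43.6 to 677) for the cytokine receptor subunit gene Csf2rb. Ackr3 had 142 UMIs in 48 Erythrocyte cells.

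The genes farthest below Erythroblast included Bcl11a, which encodes a repressor of embryonic and fetal globin genes. Its level was 0 in F0_8 and F1_1, 0.394 in F0_9 and 0.0558 in F1_mix, against an Erythroblast mean of 2.47, and it had 6 UMIs in 4 Erythrocyte cells. Its pooled level was 0.0491 times that of Erythroblast (95% interval 0.0180 to 0.107). Tle5, Npm3 and Ppm1l had 5, 8 and 4 UMIs, with pooled levels of 0.0604 (0.0195 to 0.142), 0.0835 (0.0359 to 0.165) and 0.0590 (0.0160 to 0.152) times Erythroblast. All UMIs of Tle5 and Ppm1l lay in F0_9. Without F0_9 the ratio of the mean levels was 0.00707 for Bcl11a, against 0.0456 with it, and 0.0290 for Npm3, against 0.0588. Cyba, an NADPH oxidase subunit gene, and Ppif, a mitochondrial cyclophilin gene, had 0 UMIs in the Erythrocyte cells. The 95% intervals of their pooled levels reached up to 0.101 and 0.0945 times Erythroblast. Vamp5, Pla2g12a, Tagln2 and Cd81 had 2, 3, 2 and 3 UMIs. Their pooled levels were 0.0214 (95% interval 0.00259 to 0.0777), 0.0330 (0.00679 to 0.0968), 0.0342 (0.00413 to 0.124) and 0.0561 (0.0115 to 0.165) times those of Erythroblast. In all, 110 of the 1610 lower genes had 0 UMIs in the Erythrocyte cells.

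In the lists of genes by function, the heme and iron genes stood high by level outside globins. The lists are given on this scale only, and over all gene UMIs only 32 genes were higher in all. Of 11 counted heme synthesis genes, 5 were higher and 0 lower than in Erythroblast, against 3.74% higher and 23.4% lower over all genes. Besides Alas2, they included Fech with a mean of 14.5, Urod with 11.3 and Uros with 3.14, at 4.43, 3.09 and 2.83 times Erythroblast. The iron handling list had 5 of 17 higher and 1 lower. Fth1 was 5.57 times, Ftl1 3.31 times, Slc25a37 5.65 times and Ncoa4, which delivers ferritin to autophagy, 10.1 times its Erythroblast mean. Antioxidant genes had 4 of 20 higher and 2 lower, with Gpx1 at 5.87, Selenow at 5.40, Prdx2 at 3.95 and Gpx4 at 2.40 times Erythroblast.

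Genes of the red cell surface and of the ubiquitin, mitophagy and erythroid marker lists were also among the higher ones. The membrane and skeleton list had 5 of 24 higher and 2 lower, among them Slc4a1, the anion exchanger, at a level of 11.3 (4.55 times Erythroblast) and Rhd at a level of 13.2 (3.40 times Erythroblast). Of 17 ubiquitin pathway genes 8 were higher and 0 lower, with Ube2l6 at a level of 8.20 (12.3 times Erythroblast), Trim10 at a level of 7.59 (5.40 times Erythroblast) and Rnf10 at a level of 3.05 (6.60 times Erythroblast). The mitophagy list had 4 of 16 higher and 1 lower, with Bnip3l, needed to clear mitochondria from red cells, at a level of 10.1 (4.13 times Erythroblast), Map1lc3b at a level of 7.27 (3.94 times Erythroblast) and Gabarapl2 at a level of 5.39 (4.15 times Erythroblast). The list of globin partner and erythroid marker genes had 9 of 19 higher and 0 lower, with Creg1 at a level of 14.8 (3.66 times Erythroblast) and Fam210b at a level of 12.6 (5.83 times Erythroblast). Of 10 genes of cell cycle exit 2 were higher and 1 lower, and Cdkn1b, an inhibitor of cyclin-dependent kinases, was higher at a level of 0.749 (6.35 times Erythroblast).

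The other lists are to be read beside the 3.74% higher and 23.4% lower over all genes. Glycolysis and the pentose phosphate path had 12 of 19 genes lower and only Bpgm higher, with Ldha at a level of 1.04 (0.0684 times Erythroblast), Tpi1 at a level of 1.03 (0.118 times Erythroblast) and Aldoa at a level of 2.09 (0.198 times Erythroblast). Immediate early and heat shock genes had 6 of 14 lower and 0 higher, with the mitochondrial chaperones Hspd1 and Hspe1 at 0.103 and 0.141 times Erythroblast. The S phase list had 8 of 20 lower and 0 higher and the G2 and M phase list 2 of 22 lower and 0 higher, the latter a smaller share lower than over all genes. Of 18 chromatin genes 9 were lower and 1 higher, of 11 apoptosis and survival genes 3 lower and 2 higher, and of 7 oxygen response genes 3 lower and 1 higher. In the survival list Pim1 and Bcl2l1, which protect cells from apoptosis, were higher, at 8.50 against 1.42 and 2.26 against 0.196 in Erythroblast. Erythroid transcription factors were mixed, with 2 of 22 higher and 4 lower and with Klf1, Gata1 and Tal1 at 1.03, 1.13 and 1.80 times Erythroblast. Translation factors had 3 of 24 higher and 4 lower, also a smaller share lower than over all genes, transport genes 2 of 22 higher and 5 lower, and blood progenitor genes 0 of 6 higher and 2 lower. Ribosomal protein genes had 0 of 82 higher and 1 lower, far below the share lower over all genes, and mitochondrial genes 0 of 12 higher and 3 lower.

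The founder and F1 suspensions were then compared within the Erythrocyte cells, on UMIs summed per suspension without the globin genes. Of 1783 genes tested, 138 (7.74%) were higher and 85 (4.77%) lower in the founders at an edgeR adjusted p under 0.05, and 551 had an unadjusted p under 0.05. Genes of the ubiquitin and erythroid marker lists were among the higher ones (8 of 14 and 9 of 16 tested) and S phase genes among the lower ones (11 of 13). There were 2 suspensions on each side, so generation, embryo and litter cannot be told apart, and p-values measure the spread between these suspensions. The counts were 54 and 23 without F0_8, and 65 and 73 without F1_1. DESeq2 gave 84 and 36, all of them among the genes above. When the cell of lowest globin share was left out the counts were 186 and 145, with 137 and 84 of the genes above among them.

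Levels outside globins are shares, and the founder cells held fewer such UMIs per cell, so the same genes were also read as UMIs per cell. Of the 138 genes higher in the founders by level, 115 had more UMIs per cell in the founders and 23 had fewer. All 85 lower genes had fewer UMIs per cell, and so did 1500 of the 1560 genes not called. Fth1, Ftl1, Gpx1 and Alas2 were among the 23, with 282, 121, 95.1 and 17.5 UMIs per founder cell against 399, 152, 97.9 and 23.5 per F1 cell, as means of 2 suspensions, and the suspensions overlapped for Gpx1. For these genes the direction thus depends on the scale.

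The genes with the smallest p among those higher in the founders were higher on both scales. Hsd3b6 was higher by 3.13 ± 0.390 (log2, SE; edgeR adjusted p = 0.00183) and had 14.4, 12.4, 2.78 and 5.19 UMIs per cell in F0_8, F0_9, F1_1 and F1_mix. Bpgm was higher by 2.17 ± 0.276 (log2, SE; edgeR adjusted p = 0.00183) and had 16.7, 19.5, 12.9 and 9.06 UMIs per cell. For both genes the founders and F1 suspensions did not overlap. Xpo7, an exportin gene, stood at 11.3, 5.83, 0.798 and 0.725 and was higher by 3.40 on the log2 scale. Bcl2l1 stood at 4.86, 3.31, 0.479 and 0.391 (log2 3.15) and Ubb at 43.7, 25.8, 6.79 and 9.21 (log2 2.08). Others of the 10 were the ubiquitin ligase genes Marchf3 (log2 2.25) and Mkrn1 (2.03), the pentose phosphate enzyme gene Taldo1 (1.70) and Tcp11l2 (5.63, on 35 UMIs). The edgeR adjusted p-values of these genes beside Hsd3b6 and Bpgm lay between 0.00201 and 0.00716. In the other cell types of comparable depth, Hsd3b6 stood at 0.00213 in the founders and 0.00294 in the F1 suspensions, Bpgm at 0.462 and 0.458, and Ubb at 23.4 and 23.7.

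The genes with the smallest p among those lower in the founders were led by Ppia, cyclophilin A, which stood at 4.64, 5.44, 28.7 and 17.0 (log2 -2.18 ± 0.346 SE, edgeR adjusted p = 0.00573). Anp32b, a histone chaperone gene, stood at 6.84, 10.7, 28.3 and 27.1, and the linker histone gene H1f5 at 0.441, 0.473, 2.87 and 7.31. Replication genes made up several of the 10. Mcm6 and Mcm7, subunits of the replicative helicase, stood at 0, 0.236, 2.55 and 2.34 and at 0, 0.315, 2.40 and 2.01. Fen1 and Lig1, which process and join Okazaki fragments, had log2 values of -3.33 and -3.08 on 58 and 86 UMIs. Ybx1 (log2 -2.49), the tubulin gene Tuba1b (-1.80) and Fbxo5 (-3.45), an inhibitor of the anaphase-promoting complex, completed the 10. In all of these genes both founders lay below both F1 suspensions.

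Among lists with at least 5 genes tested, the S phase genes had the largest share of calls. Of 13 tested, 11 were lower and 0 higher in the founders, with a median log2 of -2.56 against -0.07 over all genes, and beside the 4.77% lower over all genes. Their summed level was 3.53, 9.77, 34.7 and 38.8, while in Erythroblast it was 46.1, 47.3, 42.4 and 47.7. Pcna, the replication clamp, was at 0, 1.10, 3.59 and 4.91, and Rrm2, a ribonucleotide reductase subunit, at 0.441, 0.867, 2.55 and 5.91. The G2 and M phase genes had 2 of 14 lower and 0 higher, namely Top2a and Birc5, and their summed level of 14.6, 33.6, 26.3 and 58.4 overlapped between generations. Of 6 genes of cell cycle exit, 3 were higher: the growth arrest gene Gadd45a (log2 2.28) and the kinase inhibitor genes Cdkn1c (2.17) and Cdkn1b (1.85).

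In the erythroid lists some members were higher in the founders by level. Ubiquitin pathway genes were higher in 8 of 14, globin partner and marker genes in 9 of 16, mitophagy genes in 4 of 7, iron handling genes in 5 of 10, membrane genes in 4 of 22, antioxidant genes in 3 of 15 and heme synthesis genes in 2 of 10, with 0 lower in each of these 7 lists and beside 7.74% higher over all genes. Most members of the membrane, antioxidant and heme lists did not pass, and the list medians lay between log2 0.44 and 1.28. In Erythroblast the summed levels of these 7 lists were also higher in both founders than in both F1 suspensions. They were 53.9, 63.2, 18.4 and 29.5 for heme synthesis and 66.4, 77.4, 20.5 and 37.9 for the partner and marker genes, against 142, 126, 77.9 and 95.8 and 274, 228, 105 and 125 in the Erythrocyte cells. Alas2 stood at 3.62 in founder and 0.360 in F1 Erythroblast cells and Kel at 3.51 and 0.935, while Ubb stood at 12.2 and 13.5, as means of 2 suspensions. Whether the difference between generations was of another size in the 2 cell types was not tested. Per cell, in the Erythrocyte cells, the summed UMIs of the ubiquitin list were 46.5 and 43.3 in the founders and 43.6 and 48.7 in the F1 suspensions, which overlap, and those of the heme, iron, membrane, mitophagy, antioxidant and marker lists were lower in both founders than in both F1 suspensions. Among the members that passed, Ube2o, a ubiquitin ligase known to remodel the red cell proteome, stood at 5.96, 2.68, 0.399 and 0.670 (log2 2.82), Tmcc2 at 8.39, 4.10, 0.399 and 1.06 (log2 2.92), Bnip3l at 20.8, 10.7, 3.67 and 5.25 (log2 1.75) and the skeleton gene Epb41 at 17.0, 13.8, 3.11 and 5.64 (log2 1.77). In the other lists, 1 of 14 erythroid transcription factors (Foxo3, with a list median of log2 0.17), 2 of 8 glycolysis and pentose phosphate genes, 2 of 12 transport genes, 2 of 5 apoptosis and survival genes, 1 of 22 translation factors and 1 of 14 chromatin genes were higher. Lower were 3 chromatin genes (Ptma, H2az1 and Ran), 1 transport gene (Slc29a1) and 1 survival gene (Birc5), while 0 of 9 immediate early and heat shock genes and 0 of 2 blood progenitor genes passed in either direction. No oxygen response gene was abundant enough to be tested.

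**Figure D4:**
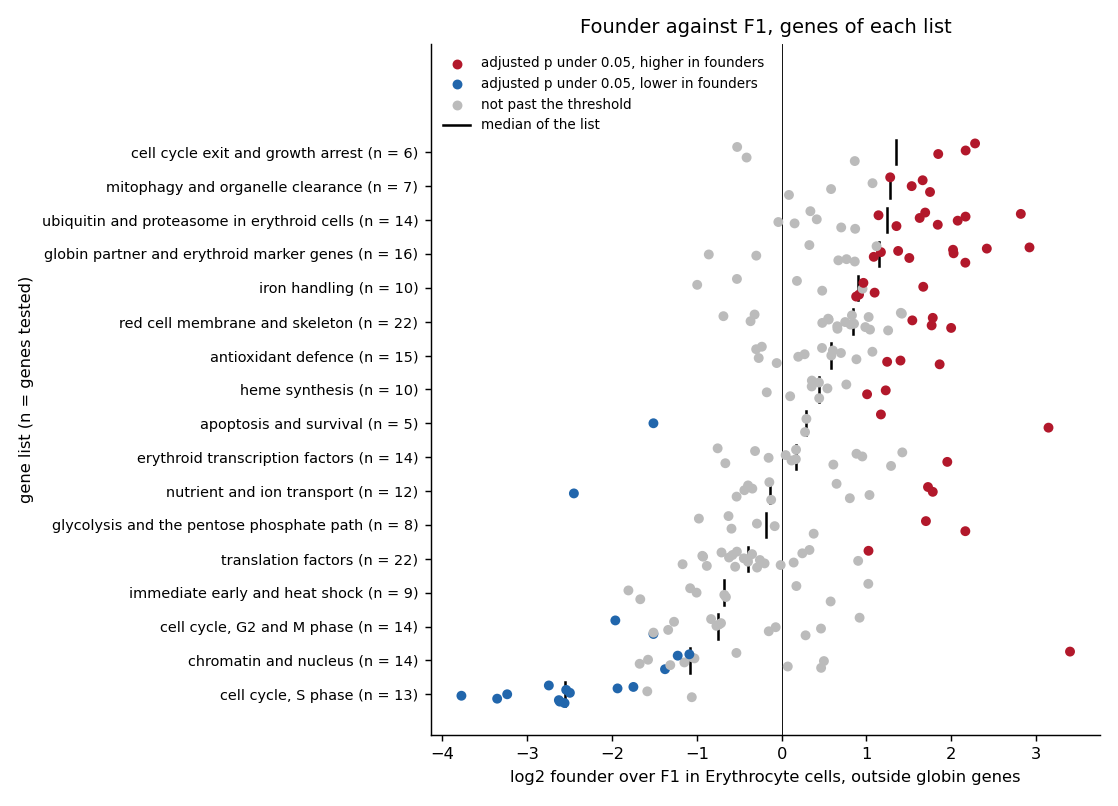
Each point is a tested gene of a list, placed by its log2 founder over F1 level in the Erythrocyte cells outside globin genes, and black bars give the median of each list with at least 5 genes tested. Red points (higher in founders) and blue points (lower) passed an edgeR adjusted p of 0.05, and 11 of 13 S phase genes are blue while 8 of 14 ubiquitin genes and 9 of 16 marker genes are red.

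Ribosomal protein transcripts took a smaller share in the founders. They made up 20.6%, 24.9%, 36.1% and 30.4% of the UMIs outside globins, and between 26.1% and 27.98% in the 4 groups of Erythroblast cells. The founders lay below and the F1 suspensions above the Erythroblast range. Of 82 ribosomal protein genes tested, 9 were lower and 0 higher in the founders, with a median log2 of -0.65, beside 4.77% lower and 7.74% higher over all genes tested. Mitochondrially encoded transcripts made up 1.24%, 1.08%, 1.83% and 1.63%, and 3 of 9 tested were lower and 0 higher in the founders, beside the same shares over all genes.

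The level of single genes was also set against the globin share of each of the 60 cells. This is a description across cells that share 4 suspensions and whose UMIs outside globins fell with the globin share (Spearman rho -0.87, and -0.61 after the mean of each suspension was subtracted). The 8 genes with the highest rho included Gpx1 (0.90), Fth1 (0.90), Ftl1 (0.87), Pabpc1 (0.86), Bpgm (0.84), Oaz1 (0.83) and Taldo1 (0.82). The 8 with the lowest included Rpl27a (-0.83), Rps27a (-0.81), Ppia (-0.80), Rpl9 (-0.80), Anp32b (-0.80), Rpl8 (-0.79) and H2az1 (-0.79). Much of this lay between suspensions. With the mean of each suspension subtracted, Fth1 stayed at 0.70, Ftl1 at 0.68, Pabpc1 at 0.66 and Gpx1 at 0.65, while Taldo1 fell to 0.43, Rps27a to -0.36 and Rpl8 to -0.29. Within the suspensions taken singly, Fth1 gave 0.90, 0.71, 0.68 and 0.41 over 12, 23, 9 and 16 cells. In the 9 cells of F1_1 several of these genes had the opposite sign, with Bpgm at -0.37, Taldo1 at -0.083, H2az1 at 0.10, Rpl8 at 0.27 and Rps27a at 0.067.

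**Figure D5:**
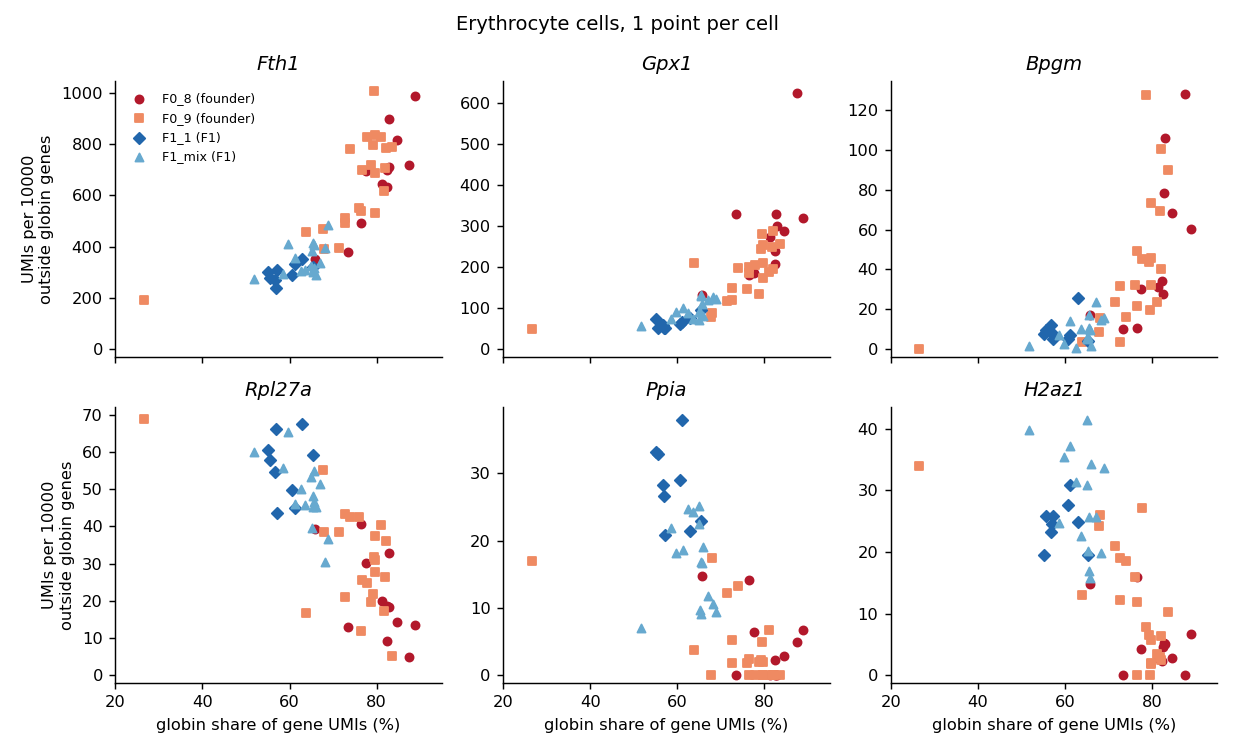
Each point is 1 Erythrocyte cell, with the globin share of its gene UMIs in percent and its level of 6 genes as UMIs per 10000 UMIs outside globin genes, and symbols give the suspension. Fth1, Gpx1 and Bpgm climb and Rpl27a, Ppia and H2az1 decline with the globin share, with pooled rho from -0.83 to 0.90, and the cell of F0_9 at 26.5% globin stands alone at the left.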

How the data were processed

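Gene expression was measured in 4 suspensions of E11.5 embryos pooled in 1 droplet library. UMI counts were deposited by the authors as matrices from Cell Ranger, release 7.2.0 in their headers, on GRCm38 with EGFP added. The authors also deposited a table of cell types with the hemoglobin percent of each cell and a DoubletFinder score, and had removed doublets and cells outside their quality limits; 18 of its 23 columns were not used. The matrices carry no correction for free RNA, and no doublet caller was run.

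Gene UMIs were used and oligo UMIs kept out of totals. The deposited percent departed from the globin share, taken over gene plus oligo UMIs, with a median gap of 0.0138 percentage points. Depth per Erythrocyte cell ranged from 11860 to 41195 gene UMIs. Counts summed per suspension without the 10 globin features were tested, founder (F0_8, F0_9) against F1 (F1_1, F1_mix), with edgeR 4.0.16 (quasi-likelihood, TMM, filterByExpr, Benjamini-Hochberg) in R 4.3.3 and tested on simulated data. DESeq2 1.42.0 and other settings served as alternatives. Shares carry exact Clopper-Pearson 95% intervals, single values exact two-sided permutation tests over suspensions, and a count of 0 allows 3. Python 3.11.15, numpy 2.4.6, pandas 2.3.3, scipy 1.17.1 and matplotlib 3.10.9 were used.

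Named genes were all globins, the 30 most abundant others, the 10 with the largest ratio to Erythroblast in each direction, the 10 called with the smallest p in each direction, the 8 highest and 8 lowest correlations with globin share, and up to 6 members per list by level, with other called members named as examples after their values were seen. Ratios against fewer than 3 counts were ranked against 3. The cells and lists were chosen with earlier results of these data known. Some genes that this rule names are not reported here.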

Additional observations from a re-analysis of the deposited data

How the results depend on the processing

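Of the 20 genes with the smallest p in the founder and F1 comparison, all kept their direction over 254 recomputed values, and 2 lost the threshold once each: Tcp11l2 without F0_8 and Fen1 without F0_9. DESeq2 called 84 higher and 36 lower. Leaving out 1 suspension gave 54 to 178 higher and 23 to 127 lower, where the lone suspension is assumed to vary like the others. Leaving out the cell of lowest globin share (chosen after seeing the data) gave 145 lower, and thinning every suspension to 45301 UMIs outside globins (also chosen afterwards) gave 108 higher and 75 lower. Against Erythroblast, levels over all gene UMIs gave 32 higher and 5461 lower, a minimum of 200 UMIs gave 145 and 843, a 3-fold limit gave 162 higher, and leaving out 1 suspension gave 249 to 423 higher and 1491 to 2109 lower. Csf2rb and Ccdc141, near the minimum of 50 UMIs, missed that rule whichever suspension was left out, and Fam174b did except without F1_1. Without F1_1 the mean ratio of Lmx1a moved from 154 to 552 and that of Csf2rb from 83.5 to 246. Without F0_9 the ratios of Lmx1a and Csf2rb were 92.1 and 54.8, and that of Ackr3 moved from 1122 to 1806. Genes per cell at 1000 and 4000 UMIs were 543.5 and 1432. The median size of rho over 1233 genes was 0.272, 0.171 after thinning and 0.154 with suspension means subtracted, and the 16 genes of highest and lowest rho kept their sign in all 32 recomputed values. No value reversed in these alternatives. UMIs per cell were not among them, and turn 23 of the 138 higher genes. In the fit with the globins kept, Hbb-y, Hba-x and Hbq1b were higher in the founders. By mean UMIs per cell they were lower, and for Hbq1b the suspensions overlapped. With 2 suspensions per generation and 9 to 23 cells each, genes of few UMIs were out of reach. No paired analysis was possible because the suspensions share no replicate numbers.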

Other observations

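EGFP, the transgene, was counted 42 times in 24 of the 60 Erythrocyte cells. Its level outside globin genes was 0.441, 0.788, 1.44 and 0.670, against 2.09 in Erythroblast, 15.5 in the other cell types of comparable depth and 13.5 in the droplets of free RNA. The generations did not separate, since F1_mix lay between the founders.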
